A study of Mus musculus with 13 samples.

Results

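The response of H3K4me3 to the SIRT1 agonist SRT2104 was compared between knockout and wild-type mice at 13503 autosomal promoter regions of 14006 in all, the remaining 503 lying on chromosomes X and Y. The data are 13 H3K4me3 ChIP-seq libraries (sequencing of chromatin precipitated with an antibody to the mark) of hippocampus from C57BL/6 mice. For each region the response in wild type was subtracted from the response in knockouts, each response being the mean of the SRT2104 libraries minus the mean of the libraries without SRT2104 on log2(value + 1). This quantity is called the difference between the responses, and it is above 0 where knockouts responded upward relative to wild type. The autosomal regions were taken by position, and all 14006 passed the required value of 10 in at least 2 libraries.

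The 4 groups were knockouts given SRT2104 (n = 4), untreated knockouts (n = 2), wild type given SRT2104 (n = 3) and wild type given vehicle (n = 4). The genotypes are labelled TC;MLML_MTR-KO, abbreviated KO, and MLML-WT, abbreviated WT. KO mice lack exons 4 and 5 of the methionine synthase gene Mtr in the nervous system, cut out by a Cre recombinase under the Thy-1.2 promoter, which is known to act mainly in neurons. Treated mice received 9 gavages of SRT2104, 3 each week between day 15 and day 36, at a dose of 50 mg/kg, and WT controls received DMSO-PEG vehicle. Untreated KO mice are labelled as not treated, not as given vehicle, so gavage and vehicle cannot be told apart from SRT2104 within KO. The labels give neither the age at sampling nor whether each library is a separate mouse, so p-values measure only the spread between these libraries. Sex letters in the column names give 2 females and 2 males among SRT2104-treated KO, 2 females among untreated KO, 1 female and 2 males among SRT2104-treated WT and 4 males among vehicle-treated WT. No difference between the responses can therefore be formed within 1 sex, and a fit with sex as a covariate is given instead.

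H3K4me3 is placed on nucleosomes around active transcription start sites by COMPASS-type methyltransferases, which take the methyl group from S-adenosylmethionine. Methionine synthase remakes methionine, the precursor of that donor, from homocysteine with a cobalamin cofactor. SIRT1 is an NAD-dependent deacetylase of histones and transcription factors. In brain tissue the mark is broad at genes that define a cell type, so that its level in bulk hippocampus depends on which cells are present as well as on the state of each cell. Fewer cells of a type and less of the mark per cell cannot be told apart here.

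Promoter sequences were drawn from regions with a mean value of 30 or more, and not from every chromosome. A region with a smaller p-value, such as that of Pdgfrb, can therefore be missing. Within that choice, 4 genes had 1 promoter listed in RefSeq and the smallest p-values of the difference between the responses, 2 in each direction. Their promoters are shown. Each runs 5′ to 3′ along the gene from 250 bases before to 50 after the start, on the minus strand of GRCm38.p6, and capitals mark CG dinucleotides. The files' own regions are on mm9, and no coordinate was moved between builds. The first pair, at chr7:51862218-51862517 and chr2:174438990-174439289, had differences above 0.
Fancf: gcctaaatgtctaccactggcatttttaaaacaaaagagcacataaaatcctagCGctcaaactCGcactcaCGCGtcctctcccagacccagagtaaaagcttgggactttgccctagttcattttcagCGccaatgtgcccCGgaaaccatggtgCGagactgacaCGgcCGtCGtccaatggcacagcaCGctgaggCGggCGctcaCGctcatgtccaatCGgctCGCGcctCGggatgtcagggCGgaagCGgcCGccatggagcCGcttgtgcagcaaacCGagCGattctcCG
Ctsz: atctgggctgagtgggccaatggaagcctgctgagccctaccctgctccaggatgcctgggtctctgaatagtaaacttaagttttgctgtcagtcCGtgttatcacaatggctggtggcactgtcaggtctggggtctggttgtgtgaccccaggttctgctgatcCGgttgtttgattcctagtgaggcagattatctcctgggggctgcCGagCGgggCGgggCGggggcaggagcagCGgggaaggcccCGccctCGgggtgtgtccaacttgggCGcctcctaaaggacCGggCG
The second pair, at chr13:34077959-34078258 and chr9:54068362-54068661, had differences below 0.
Tubb2a: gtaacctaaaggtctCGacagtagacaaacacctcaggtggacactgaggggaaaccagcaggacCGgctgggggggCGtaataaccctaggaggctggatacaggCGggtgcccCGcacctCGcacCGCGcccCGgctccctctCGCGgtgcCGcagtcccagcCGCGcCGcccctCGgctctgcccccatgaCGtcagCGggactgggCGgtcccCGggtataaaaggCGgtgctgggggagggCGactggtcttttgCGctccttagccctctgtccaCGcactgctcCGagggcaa
Tnfaip8l3: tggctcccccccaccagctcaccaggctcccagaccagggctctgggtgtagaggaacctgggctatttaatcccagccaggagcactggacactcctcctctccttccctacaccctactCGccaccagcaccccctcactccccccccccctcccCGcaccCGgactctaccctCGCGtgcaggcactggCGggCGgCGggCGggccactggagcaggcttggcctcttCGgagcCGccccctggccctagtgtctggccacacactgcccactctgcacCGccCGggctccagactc
Fancf and Tubb2a each hold 25 CG dinucleotides, Tnfaip8l3 holds 13 and Ctsz 12, against a median of 21 over the 7738 regions matched to a RefSeq promoter. CpG content therefore did not separate these 4 promoters by direction, although it differed between the larger sets described at the end.

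Reads within regions ranged from 3963196 in WT SRT2104 replicate 1 to 9009109 in KO SRT2104 replicate 2, with library medians of 277 to 632 reads per region. On the first principal component of the autosomal regions, which held 27.2% of the variance, the untreated KO libraries scored 12.2 and 21.6 and WT vehicle replicate 3 scored 17.2. The other 10 libraries scored between -9.27 and -0.72. WT vehicle replicate 3 therefore stood apart from its own group and beside the untreated KO libraries, and results are given with and without it. It was not the only library apart from its group. On the second component, which held 17.7% of the variance, WT SRT2104 replicate 1 scored 18.6 and replicates 2 and 3 scored 1.48 and 1.06. There the untreated KO libraries scored -13.2 and 9.13. Both responses had a median below 0 over all regions, -0.05 in KO and -0.05 in WT, and -0.0029 in KO and 0.00027 in WT with TMM scaling. The median difference between the responses was 0.0073, and 0.0047 with TMM scaling.

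By limma, 0 of 13503 regions (0%) had a difference between the responses that passed an adjusted p of 0.05, the smallest adjusted p being 0.132. An unadjusted p under 0.05 was reached by 1070 regions (7.92%), of which 522 (3.87%) had a difference above 0 and 548 (4.06%) one below 0. Those 1070 are used here as a description and not as calls. With edgeR the count was 0, the smallest adjusted p was 0.144 and 1139 regions had an unadjusted p under 0.05. DESeq2 called 13 (0.0963%), 3 above 0 (0.0222%) and 10 below (0.0741%), and voom with sample weights called 5 (0.037%), all below 0. With sex as a covariate limma called 0, with 735 at an unadjusted p under 0.05. Within KO limma called 0 regions (1698, or 12.6%, at an unadjusted p under 0.05; edgeR 0 and DESeq2 29), and within WT it called 1 (0.00741%), Thsd4 (1809, or 13.4%, at an unadjusted p under 0.05).

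The size of the difference was modest at most promoters. Its 5th and 95th percentiles were -0.31 and 0.31 log2, with a median standard error of 0.095 per region. It reached 0.5 in either direction in 585 regions (4.33%) and 1 in 82 (0.607%), of which 45 had a mean value under 50. Responses in KO and WT, which share no library, were nearly unrelated across regions (Pearson r = 0.084, Spearman rho = 0.046, given as a description over regions that share libraries). The correlation was -0.19 without WT vehicle replicate 3 and 0.19 without WT vehicle replicate 2, so that its sign rested on single vehicle libraries. The responses had opposite signs in 33.7% of all regions, and in 47.5% after TMM scaling. Among the 1070 regions the share was 89.9%, while 8.6% had the same sign and the larger response in KO and 1.5% the same sign and the larger response in WT. That share follows in part from selecting large differences.

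**Figure D1:**
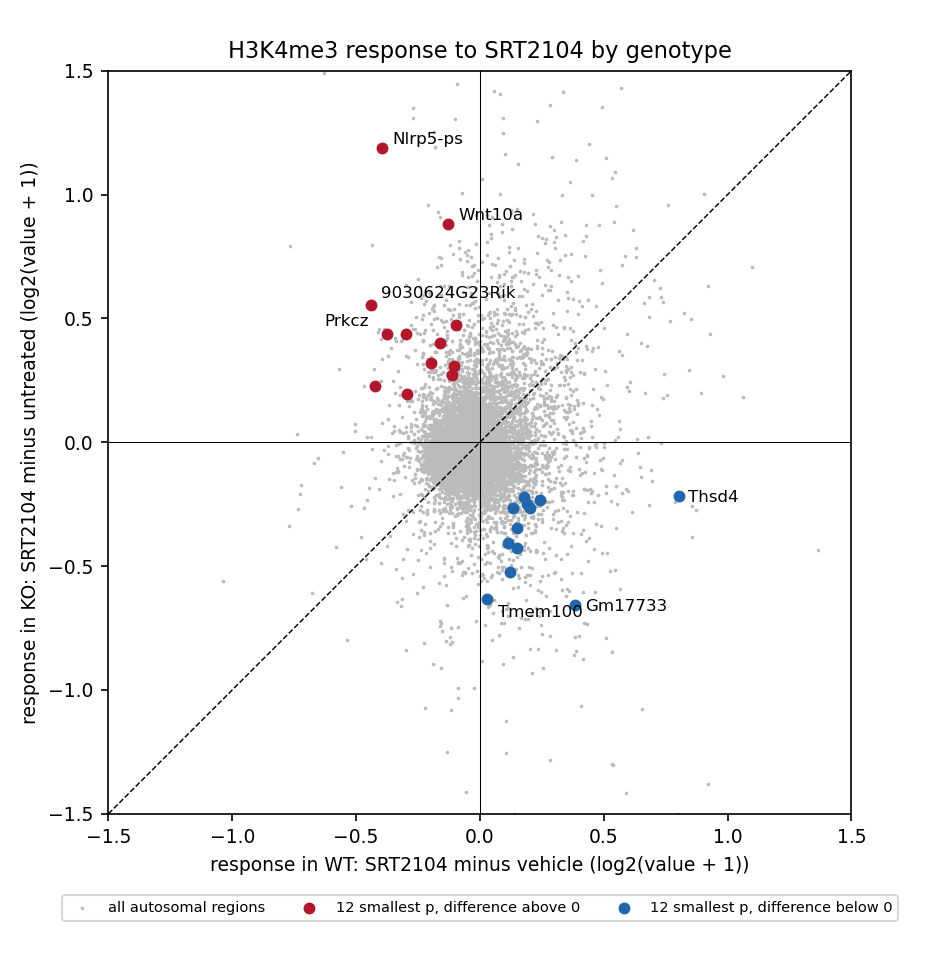
Each point is 1 autosomal region, with the log2(value + 1) response to SRT2104 in WT on the horizontal axis and in KO on the vertical axis; the dashed line marks equal responses. The 12 regions with the smallest p in each direction are coloured and all 24 lie in the quadrants of opposite sign; 20 regions lie beyond the axis limits of 1.5.

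Promoters with a difference above 0 were led by 9030624G23Rik, a transcript with no role assigned here (chr12:24781226-24782520 on mm9). Its normalised read count was 240.2, 188, 159 and 203 in KO SRT2104, against 125 and 140.5 in untreated KO. In WT it was 153, 151 and 124 with SRT2104 and 166, 206, 187 and 218 with vehicle. Every treated KO library was above every untreated one and every treated WT library below every vehicle one, so the groups did not overlap in either genotype. The responses were 0.56 in KO and -0.44 in WT, a difference of 1.00 ± 0.20 log2 (SE; limma adjusted p = 0.132, and 0.00818 to 0.477 under the alternatives).

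Wnt10a, which encodes a secreted Wnt ligand (chr1:74838066-74838952), had its untreated KO libraries apart from the rest. It had 106, 120.2, 120.0 and 106 in KO SRT2104 and 48.2 and 77.0 in untreated KO. WT libraries held 105, 90.6 and 103 with SRT2104 and 103, 111, 119 and 102 with vehicle. Thus 11 of 13 libraries lay between 90.6 and 120.2, and both untreated KO libraries were below that range. The difference was 1.01 ± 0.22 log2 (limma adjusted p = 0.202).

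Fancf, a subunit of the Fanconi anaemia core complex of DNA crosslink repair (chr7:59116548-59118166), had its groups in opposite order in the 2 genotypes, without overlap. Its values were 623, 611, 589.6 and 609 in KO SRT2104 and 558 and 506 in untreated KO, against 440.2, 576 and 547 in WT SRT2104 and 599.6, 653, 618 and 669 in WT vehicle. The lowest library was WT SRT2104 replicate 1, the library with the fewest reads. The difference was 0.49 ± 0.11 (limma adjusted p = 0.202), and DESeq2 called it (adjusted p = 0.0217). 2210011C24Rik, whose region also carries the microRNA gene Mir1199 (chr8:86534858-86536308), did not overlap in either genotype either. It had 327, 332, 323 and 291 in KO SRT2104 and 242 and 268 in untreated KO, with 263, 293 and 298 in WT SRT2104 and 332, 344, 312 and 320.2 in WT vehicle, a difference of 0.52 ± 0.12 (limma adjusted p = 0.202). Igf2bp3, an RNA-binding protein of developing tissue (chr6:49163691-49165694), had the same pattern. Its values were 159.7, 159.7, 174 and 169 in KO SRT2104 and 112 and 133 in untreated KO, against 121, 146 and 171 in WT SRT2104 and 173, 192, 176 and 172 in WT vehicle. WT SRT2104 replicate 3 lay within 1 of the lowest vehicle library, so the WT groups only just failed to overlap.

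Ctsz, a lysosomal carboxypeptidase of the cathepsin family (chr2:174263795-174264872), had 279, 274, 268 and 288 in KO SRT2104 and 204 and 195 in untreated KO. In WT it had 251, 253 and 257 with SRT2104 and 282, 304, 235 and 269 with vehicle. The KO groups were far apart and the WT groups overlapped through vehicle replicate 3, the lowest of that group, and the difference was 0.57 ± 0.13 (limma adjusted p = 0.202). Nlrp5-ps, annotated as a pseudogene whose reads could also come from related copies (chr7:15207601-15208743), had 94.1, 82.3, 73.6 and 85.4 in KO SRT2104 and 33.1 and 39.4 in untreated KO. Its WT values were 70.4, 79.9 and 47.7 with SRT2104 and 47.7, 108, 92.5 and 110.0 with vehicle, where vehicle replicate 1 was as low as the lowest treated library. Its difference of 1.58 ± 0.36 was the largest of these 12 (limma adjusted p = 0.245). The other 5 of the 12 were the atypical protein kinase C gene Prkcz (0.81), the microtubule-associated kinase gene Mast4 (0.38), the transcription factor gene Mafa (0.56), the actin-capping tropomodulin gene Tmod1 (0.42) and Gm10037 (0.65). In Prkcz, Mast4, Mafa and Tmod1 the KO groups did not overlap and the WT groups did, and in Gm10037 the reverse held.

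**Figure D2:**
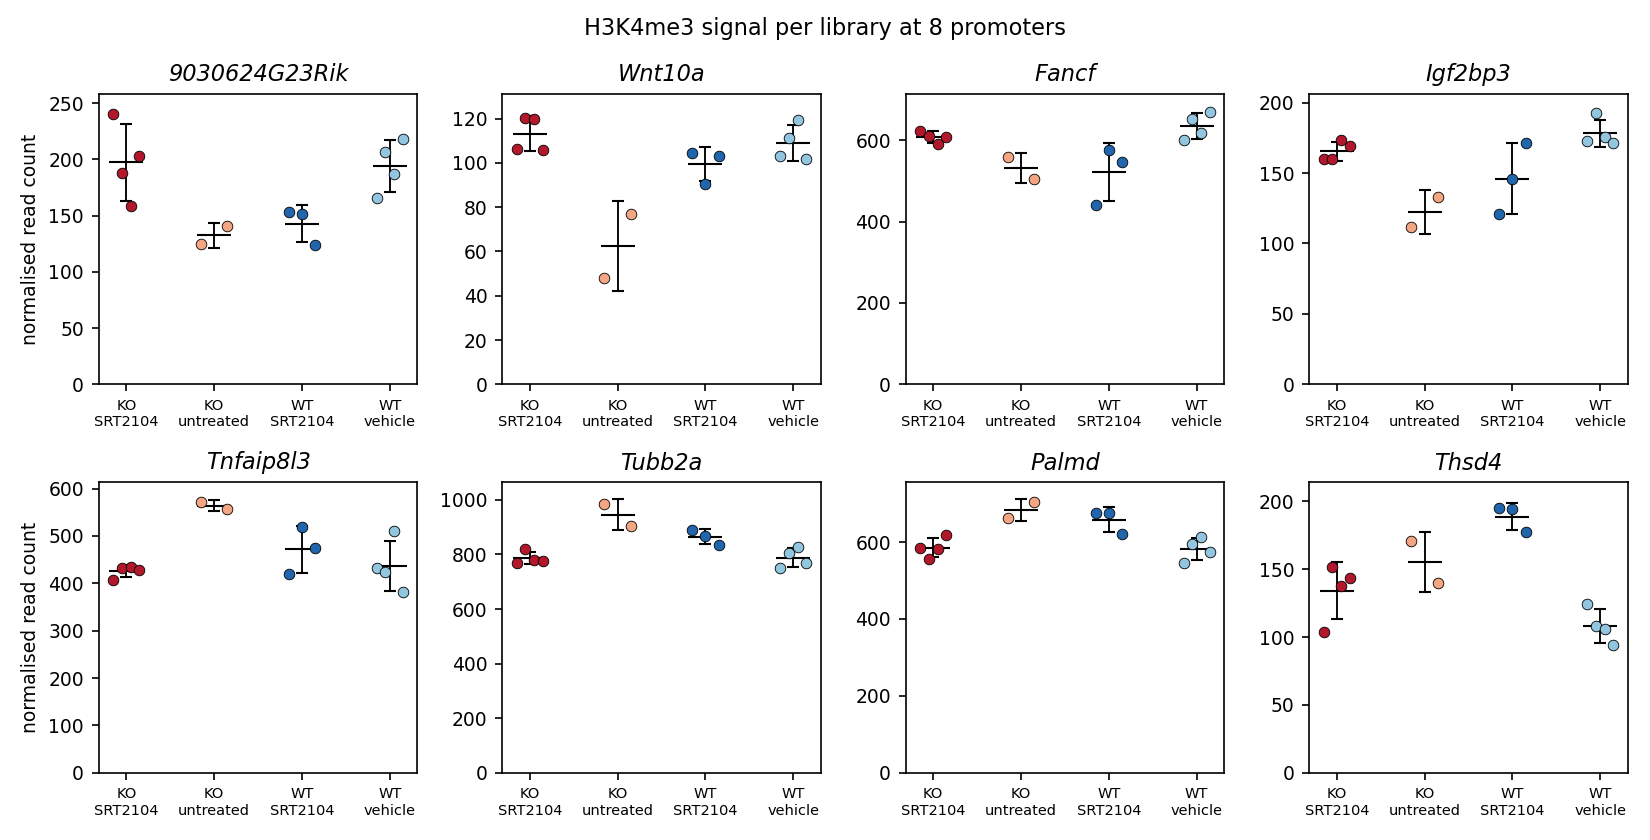
Normalised read counts of H3K4me3 at 8 promoters, 1 point per library, with group means as bars and SD as whiskers (n = 4 KO SRT2104, 2 KO untreated, 3 WT SRT2104 and 4 WT vehicle). In Wnt10a and Tnfaip8l3 the untreated KO libraries lie apart from all other 11, and in Thsd4 the WT groups are the farther apart.

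Promoters with a difference below 0 included a pair of neighbouring beta-tubulin genes, Tubb2a (chr13:34168078-34170317) and Tubb2b (chr13:34220757-34222885), both building blocks of neuronal microtubules. Tubb2a had 770.1, 819, 779 and 777 in KO SRT2104 and 985 and 905 in untreated KO, against 891, 868 and 836 in WT SRT2104 and 749.7, 806, 828 and 768 in WT vehicle. The treated libraries were below in KO and above in WT without overlap. Tubb2b had 635, 672, 697 and 586 in KO SRT2104 and 864 and 783 in untreated KO. Values in WT were 778, 759.5 and 675 with SRT2104 and 617, 641, 752 and 649 with vehicle, where vehicle replicate 3 lay within the treated range. The differences were -0.40 ± 0.08 at Tubb2a and -0.50 ± 0.11 at Tubb2b (limma adjusted p = 0.132 and 0.202), and DESeq2 called both. Because the genes are close copies, reads may have been shared between them, and the pair is not counted as independent.

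Palmd, which encodes the paralemmin-family protein palmdelphin and shares its region with 4930455H04Rik (chr3:116669578-116671985), was the other promoter among these 12 that did not overlap in either genotype. It had 586, 556, 583 and 617 in KO SRT2104 and 662 and 703 in untreated KO, with 677, 676 and 620.5 in WT SRT2104 and 546, 594, 612 and 574 in WT vehicle. The difference was -0.40 ± 0.08 (limma adjusted p = 0.202; DESeq2 0.0448). Thsd4, a thrombospondin-repeat protein of the extracellular matrix (chr9:59987283-59989300), had its WT groups apart instead. It had 104, 151, 138 and 144 in KO SRT2104 and 171 and 139.6 in untreated KO, which overlapped. WT had 195, 194 and 177 with SRT2104 and 124, 108, 106 and 94.1 with vehicle, far apart, and this WT response of 0.81 was the only one that limma called (adjusted p = 0.0408, 0 regions called with TMM scaling, loess scaling, edgeR or the replicate block). Its difference between the responses was -1.02 ± 0.20 (limma adjusted p = 0.132).

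Tnfaip8l3, a carrier of phosphoinositide lipids (chr9:53915362-53917143), had 406, 433, 434 and 429 in KO SRT2104 and 572 and 556 in untreated KO. WT had 420.4, 519 and 475 with SRT2104 and 431, 425, 509.8 and 382 with vehicle. Both untreated KO libraries were above all others, the difference was -0.52 ± 0.12, and DESeq2 and voom both called it (adjusted p = 0.0327 and 0.0487). Pdgfrb, the platelet-derived growth factor receptor of pericytes (chr18:61204746-61206500), had 210.5, 196, 218 and 202 in KO SRT2104 and 293 and 302 in untreated KO. Its WT values were 211, 236 and 254 with SRT2104 and 241, 192, 216 and 209 with vehicle, and the difference was -0.65 ± 0.14 (limma adjusted p = 0.202). Also among the 12 were Tmem100 (-0.66), a transmembrane protein of vascular endothelium, Dock9 (-0.48), an activator of the small GTPase Cdc42, the septin gene Sept9 (-0.44), Fry (-0.47) and Gm17733 (-1.04). In these 5 the untreated KO libraries lay above the treated ones without overlap, and the WT groups overlapped.

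Of the 24 regions, the KO groups did not overlap in 22 (21.7% of all regions), the WT groups in 8 (14.4%) and both in 6. Since these regions were chosen for their difference, those counts describe the choice. The group whose mean lay farthest from the other 3 was untreated KO in 20 of the 24 and WT vehicle in 4, namely Fancf, Gm10037, Thsd4 and Dock9. Over all autosomal regions it was untreated KO in 43.8%, WT SRT2104 in 36.1%, WT vehicle in 11.3% and KO SRT2104 in 8.71%. Among the 1070 regions with an unadjusted p under 0.05, untreated KO was farthest in 62.9%, or 53.4% of those above 0 and 71.9% of those below 0. SRT2104-treated KO was farthest in 8.41% of the 1070. Untreated KO has only 2 libraries, so its mean varies more than the others, and how far this moves those shares was not tested.

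The number of calls rested on WT vehicle replicate 3. Without it, limma called 266 regions (1.97%), 92 above 0 (0.681%) and 174 below (1.29%), against 0 with it. All 266 had the same sign with all libraries, and 230 of them had an unadjusted p under 0.05 there. Among the 266 were 23 of the 24 regions described above, all 13 called by DESeq2 and all 5 called by voom. The fits share every other library, so these overlaps follow in large part from the shared values and are no separate support. Vehicle replicate 3 was singled out by its place on the first principal component of the same data. Of the 13 called by DESeq2, 11 are among the 24, and the others are Fam107a, an actin-associated gene (log2 -0.82 by limma, DESeq2 adjusted p = 0.0441), and 9530026P05Rik (-0.54, DESeq2 adjusted p = 0.0217). In the remaining one of the 24, Gm10037, the adjusted p without that library was 0.0501. Untreated KO was the farthest group in 238 of the 266. When another library was left out, limma called at most 2 regions: H2-Q5 and Gm6623 without untreated KO replicate 1, Wnt10a and Gipc2 without untreated KO replicate 2, Gm10037 and 9030624G23Rik without KO SRT2104 replicate 3, Nlrp5-ps without WT vehicle replicate 1, and 0 without any of the other 8. Without 1 of its libraries untreated KO holds a single one, which is assumed to vary like the other groups. At H2-Q5 and Gm6623 the library then remaining, untreated KO replicate 2, has a value of 0, while replicate 1 has 24.6 and 17.01.

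The place of vehicle replicate 3 can be seen at neuronal genes outside the 24, picked after their values were seen. Sstr3, the somatostatin receptor of neuronal primary cilia (chr15:78372848-78375523), had 234, 282, 217 and 206 in KO SRT2104 and 436 and 411 in untreated KO. In WT it had 372, 371 and 279.6 with SRT2104 and 259, 198, 377 and 235 with vehicle. The untreated KO libraries were the highest, and vehicle replicate 3 lay just above all treated WT libraries. The difference was -1.24 ± 0.30 with all libraries (limma adjusted p = 0.367) and -1.42 without vehicle replicate 3 (adjusted p = 0.00136). Pde1a, a calmodulin-dependent phosphodiesterase (chr2:79966982-79969933), had 254, 406, 364 and 315 in KO SRT2104, 548 and 595 in untreated KO, 473, 519.8 and 412 in WT SRT2104 and 292, 272, 538 and 270.0 in WT vehicle. Here vehicle replicate 3 was above its 3 fellow libraries and above all treated WT libraries, and leaving it out took the difference to -1.53, against -1.30 with it (adjusted p = 0.00405 and 0.463). Slc9a4, a sodium-proton exchanger (chr1:40636793-40637954), had 27.2, 48.6, 31.5 and 22.5 in KO SRT2104 and 110.5 and 112 in untreated KO, a KO response of -1.80. WT had 61.4, 69.2 and 42.6 with SRT2104 and 42.5, 17.3, 86.2 and 27.3 with vehicle, a response of 0.62 that overlapped through the same library. Neurod6, a transcription factor of pyramidal neurons (chr6:55631297-55631673), had a difference of -1.38 ± 0.41 at the 1 of its 2 regions with the smaller p, and -1.67 without vehicle replicate 3. The calls by voom at Sstr3, Pde1a and Slc9a4 thus concerned promoters at which untreated KO and vehicle replicate 3 were both high.

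Responses without overlap in both genotypes were counted library by library, with no test. They were opposite in 47 regions, with KO above and WT below in 23 (0.17%) and KO below and WT above in 24 (0.178%). They had the same direction in 196, both higher in 29 (0.215%) and both lower in 167 (1.24%). With TMM scaling the counts were 72 opposite and 98 in the same direction. In the 47 the absolute difference ranged from 0.16 to 1.00 log2. By limma, 43 of them had an unadjusted p under 0.05, beside 7.92% of all regions. Because the 47 were chosen from the same values that give the p, that count describes the choice. Among those of the 47 with a mean value of 30 or more, the largest below 0 was Sorbs2, an adaptor protein of the actin cytoskeleton (chr8:46746077-46746671). It had 52.0, 42.0, 44.7 and 47.9 in KO SRT2104 and 57.6 and 78.8 in untreated KO, with 61.4, 65.6 and 58.0 in WT SRT2104 and 47.7, 44.3, 48.5 and 44.0 in WT vehicle, a difference of -0.94 ± 0.26. Cntnap5c, a contactin-associated protein of the neurexin superfamily (chr17:57908461-57910295), had 146, 174, 167 and 156 in KO SRT2104, 189 and 178 in untreated KO, 216, 219 and 200.3 in WT SRT2104 and 144, 150.2, 177 and 158 in WT vehicle, a difference of -0.63 ± 0.16. Its response was larger in WT (0.43) than in KO (-0.19), and that of Sorbs2 was larger in KO (-0.53) than in WT (0.41). BC030867 (0.73), Hmha1 (-0.71) and 4930586N03Rik (-0.68) completed the opposite regions with the largest absolute differences beside those already given.

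At same-direction promoters only the size of the responses could differ. Prrxl1, a homeodomain transcription factor of sensory circuits (chr14:33410586-33411407), had 58.2, 65.8, 64.0 and 57.2 in KO SRT2104 and 25.5 and 44.8 in untreated KO, against 72.2, 70.3 and 68.2 in WT SRT2104 and 48.6, 67.0, 53.0 and 53.7 in WT vehicle. The response was 0.84 in KO and 0.34 in WT, a difference of 0.49 ± 0.28 (unadjusted p = 0.0936). It was 0.10 without untreated KO replicate 1 and 0.89 without replicate 2. Gm17750 had responses of 0.49 in KO and 0.77 in WT, Dido1 0.39 and 0.67, and Lrrc26 0.65 and 0.37, and in none of these 4 was the difference beyond its error at an unadjusted p of 0.05. With 1 library left out the difference ran from -0.44 to -0.054 at Gm17750, from -0.41 to -0.17 at Dido1 and from 0.15 to 0.44 at Lrrc26. Their mean values ran from 31.0 at Dido1 to 57.6 at Prrxl1, low for this table, whose median is 537.

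Mtr itself, whose deleted exons lie downstream of the promoter region, had a difference of -0.01 ± 0.09 (unadjusted p = 0.952), and Sirt1 0.14 ± 0.12 (unadjusted p = 0.241). The pathways named by the design stayed close to the median of all regions, 0.0073. In the methionine and folate cycle 14 of 22 genes were above 0 with a median of 0.02, and Mtrr, the reductase that reactivates methionine synthase, was the only one with an unadjusted p under 0.05, at 0.35 ± 0.14. It had 659, 666, 583 and 722 in KO SRT2104 and 676 and 557 in untreated KO, with 534, 694 and 570.2 in WT SRT2104 and 681, 686, 788 and 698 in WT vehicle. The groups overlapped in both genotypes, vehicle replicate 3 was the highest library, and the region is shared with Fastkd3. Cobalamin genes (5 of 11 above 0, median -0.02), sirtuin and NAD genes (8 of 17, median -0.0039), SIRT1 substrates (16 of 26, median 0.03) and H3K4 methyltransferases and demethylases (15 of 25, median 0.02) held 0 genes with an unadjusted p under 0.05. Leaving out single libraries moved these 5 medians between -0.074 and 0.096, across 0 in each. Ppargc1a, the mitochondrial coactivator deacetylated by SIRT1, had -0.14, the liver X receptor gene Nr1h3 0.30, the menin gene Men1 -0.13 and the COMPASS core subunit gene Wdr5 0.09.

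Several marker lists of cell types lay farther from 0 than the pathways, while the list of neural progenitors and neurogenesis did not (median 0.0025). Oligodendrocyte and myelin genes were above 0 in 27 of 31 measured genes of 36 listed, with a median of 0.32, a KO median response of 0.22 and a WT median response of -0.12. An unadjusted p under 0.05 was reached by 7 of them above 0 and 0 below, beside the 3.87% and 4.06% of all regions, and 0 were called. Zfp488, a transcriptional regulator of oligodendrocyte differentiation (chr14:34791017-34792331), had 105, 159, 133 and 121 in KO SRT2104 and 112 and 77.0 in untreated KO. In WT the counts were 121, 94.2 and 129 with SRT2104 and 154, 152, 106 and 142 with vehicle, and the difference was 0.73 ± 0.25. Mog, a protein of the outer myelin sheath, had 102, 109, 93.7 and 94.8 in KO SRT2104 and 100.1 and 46.5 in untreated KO, with 93.8, 111 and 92.1 in WT SRT2104 and 134, 116, 67.3 and 127 in WT vehicle. Untreated KO replicate 2 and WT vehicle replicate 3 were the lowest of their genotypes, and Sox10, the transcription factor of the lineage, showed the same order with 257 and 149 in untreated KO and 278, 231, 167 and 260.4 in WT vehicle. Mog and Sox10 were picked after their values were seen. Their differences were 0.65 ± 0.36 and 0.43 ± 0.28 (limma unadjusted p = 0.0895 and 0.144).

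The oligodendrocyte list followed single libraries. Relative to the mean of all libraries, its median was -0.03 and -0.36 in the untreated KO libraries, -0.29 in vehicle replicate 3 and between -0.076 and 0.20 in the other 10. The list's summed value ranged from 11312 to 11552 in KO SRT2104, from 9528.5 to 11929 in untreated KO, from 10429 to 11276 in WT SRT2104 and from 10156 to 12748 in WT vehicle. The median difference was 0.12 without untreated KO replicate 2, 0.40 without vehicle replicate 3 and 0.25 to 0.43 in the other settings that left out 1 library. Without vehicle replicate 3, 4 of its genes were called, Aspa, Cldn11, Enpp2 and Myrf, beside 1.97% of all regions. Its defining marker Mobp has no autosomal region in the table, and no measured member was at 0 in any library.

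Genes of tissue outside the hippocampus had the same sign. Hox genes, which pattern hindbrain and trunk and are low here, were above 0 in 11 of the 13 measured of 39 listed, with a median of 0.42. Hoxa5 had 21.1, 21.4, 9.64 and 21.6 in KO SRT2104, 9.45 and 7.16 in untreated KO, 19.9, 16.7 and 19.6 in WT SRT2104 and 20.8, 22.7, 17.9 and 17.6 in WT vehicle. Both untreated KO libraries were below all others, KO SRT2104 replicate 3 came close to them, and the difference was 1.08 ± 0.46 (unadjusted p = 0.0289). Hoxa5 was picked after its values were seen. Choroid plexus and ependyma genes were above 0 in 10 of 14 (median 0.39), with Foxj1, the regulator of motile cilia, at 0.47 and the thyroid hormone transporter gene Slco1c1 at -0.52. Its defining markers Ttr, Folr1, Kcnj13 and Aqp1 have no region. Markers of neighbouring brain regions were above 0 in 32 of 37 (median 0.27), with the midbrain and hindbrain gene Pax2 at 0.76 and the cortical gene Fezf2 at -0.67. Over the settings that left out 1 library the medians ran from 0.32 to 0.60 for Hox, 0.28 to 0.53 for choroid plexus and 0.18 to 0.33 for neighbouring regions, the last lowest without untreated KO replicate 1. In the untreated KO libraries the Hox medians were -0.71 and -0.28 and in vehicle replicate 3 -0.28, while the other 10 libraries were between 0.038 and 0.30.

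**Figure D3:**
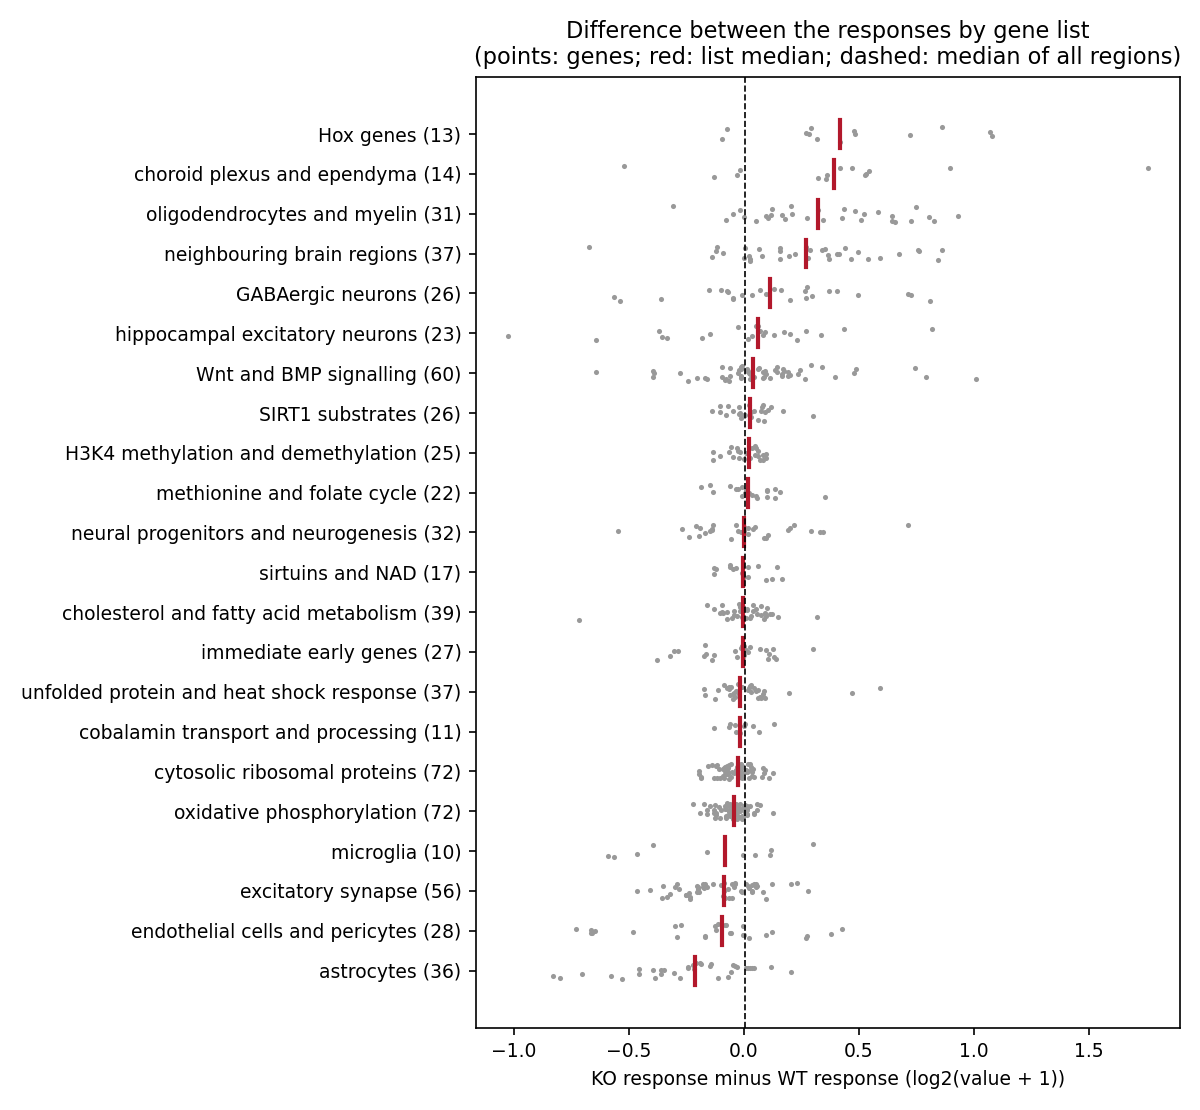
The difference between the responses (KO response minus WT response, log2(value + 1)) for the measured genes of 22 lists, with the number of genes in brackets, the list median as a red bar and the median of all regions, 0.0073, as a dashed line. Hox, choroid plexus, oligodendrocyte and neighbouring-region lists lie above it and astrocytes lie farthest below.

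**Figure D4:**
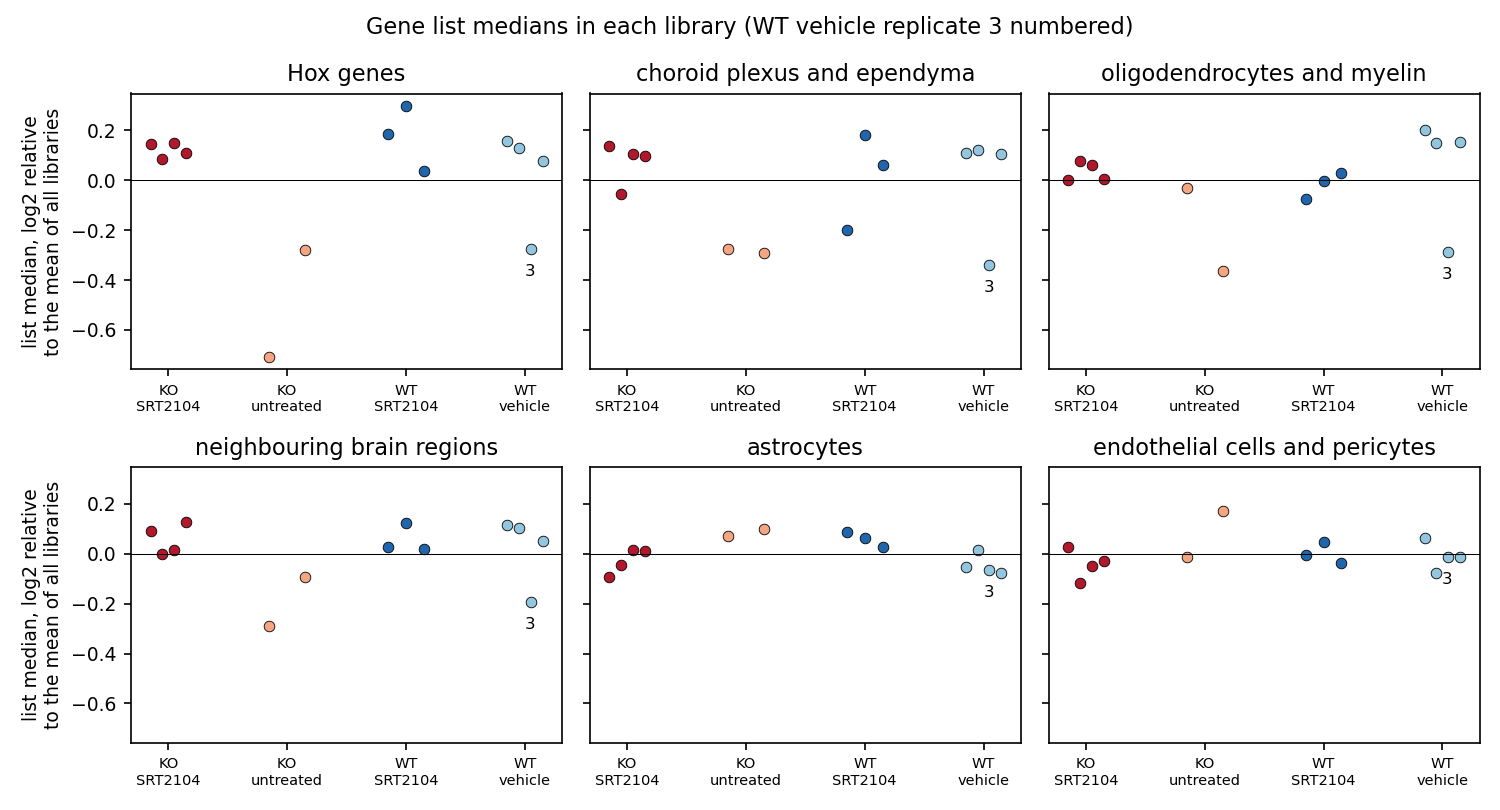
Median of 6 lists in each library, as log2 relative to the mean of all libraries, 1 point per library. In the Hox, choroid plexus and neighbouring-region lists both untreated KO libraries and WT vehicle replicate 3 lie below 0, in the oligodendrocyte list untreated KO replicate 2 and vehicle replicate 3 lie lowest, and in the astrocyte list vehicle replicate 3 does not stand apart. In the choroid plexus list WT SRT2104 replicate 1 (-0.20) and KO SRT2104 replicate 2 (-0.057) lie below 0 as well.

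Astrocyte genes had the opposite sign, and their median did not rest on vehicle replicate 3. They were below 0 in 29 of 36, with a median of -0.21, a KO median response of -0.17 and a WT median response of 0.04. An unadjusted p under 0.05 was reached by 16 below 0 and 0 above, beside 4.06% and 3.87% of all regions. With all libraries 0 were called, and without vehicle replicate 3 there were 4 calls, beside 1.97% of all regions. S100b, a calcium-binding protein of mature astrocytes (chr10:75716586-75718018), had 85.4, 113, 98.1 and 123 in KO SRT2104 and 123 and 139.6 in untreated KO. In WT it had 134, 132 and 124 with SRT2104 and 105, 105, 96.0 and 73.0 with vehicle. The WT groups did not overlap, the KO groups did by a fraction of a count, and the difference was -0.80 ± 0.22 (limma adjusted p = 0.367). Apoe, the lipid carrier released by astrocytes (chr7:20282538-20284544), had 281, 305, 321 and 338 in KO SRT2104 and 410.0 and 367 in untreated KO, with 366, 346 and 356 in WT SRT2104 and 369.6, 331, 328 and 371 in WT vehicle. Its WT response was 0.03, so its difference of -0.35 ± 0.11 came from KO. Gjb6, the gap junction gene connexin 30, had a difference of -0.46 ± 0.20 and a WT response of -0.07. S100b, Apoe and Gjb6 were picked after their values were seen. The list's summed value was 17620 to 18931 in KO SRT2104, 19360 to 20962 in untreated KO, 18093 to 19037 in WT SRT2104 and 18173 to 18821 in WT vehicle. Its median ran from -0.25 to -0.17 when single libraries were left out, and was -0.24 without vehicle replicate 3 and -0.22 with sex as a covariate. No measured member was at 0 in any library, and all 36 listed genes had a region.

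Endothelial and pericyte genes were below 0 in 20 of 28 (median -0.10), with Pdgfrb and Tmem100 as given above and the forkhead gene Foxq1 at 0.27. That median was -0.18 without untreated KO replicate 1 and -0.043 without replicate 2. Microglial genes were measured in 10 of 24, without Cx3cr1, Aif1 and Itgam, and had a median of -0.08, with 0 at an unadjusted p under 0.05. That median was -0.21 without untreated KO replicate 1 and 0.066 without WT SRT2104 replicate 2, so its sign rested on single libraries. Hippocampal excitatory neuron genes, 23 of 25 with a region, were above 0 in 15 (median 0.06), with the dentate and pyramidal gene Dkk3 at -0.64 and Pou3f1 at 0.23. The median was -0.016 without untreated KO replicate 2 and 0.034 to 0.094 without any other library. GABAergic neuron genes were above 0 in 16 of 26 with a median of 0.12, which was -0.046 with sex as a covariate and crossed 0 when single libraries were left out (lowest -0.015). Kcnc2, a potassium channel of fast-spiking cells, had -0.36 and the neuregulin receptor gene Erbb4 0.27, and Sst and Vip have no region. The part of cell makeup in any of these differences was not tested.

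Genes of the excitatory synapse were below 0 in 40 of 56, with a median of -0.09, a KO median response of -0.09 and a WT median response of 0.02. An unadjusted p under 0.05 was reached by 11 below 0 and 0 above, beside the 4.06% and 3.87% of all regions. Cacng8, an auxiliary subunit of AMPA receptors (chr7:3391070-3393112), had 535, 633, 576 and 567 in KO SRT2104 and 665 and 620.2 in untreated KO. The WT values were 689, 574 and 598 with SRT2104 and 476, 512, 549 and 543 with vehicle, and the difference was -0.41 ± 0.10 (limma adjusted p = 0.28). The median was -0.13 without vehicle replicate 3, where Cacng8 and Nrxn2 were among those called, and -0.057 without vehicle replicate 1. Immediate early genes were below 0 in 14 of 27 with a median of -0.0052. Among them 5 below 0 and 1 above reached an unadjusted p under 0.05, beside 4.06% and 3.87% of all regions. Dusp1, a phosphatase of MAP kinases, had -0.32 ± 0.10 and the stress-induced transcription factor gene Atf3 0.30 ± 0.10, and without vehicle replicate 3 both were called with these signs, as were Dusp6 (-0.34), Gadd45b (-0.37) and Nr4a1 (-0.47). Without that library 1.97% of all regions were called, and the median of the list was -0.038. Oxidative phosphorylation genes (56 of 72 below 0, median -0.04) and ribosomal protein genes (53 of 72, median -0.03) were close to the median of all regions, and both medians were above 0 without untreated KO replicate 1 (0.0084 and 0.041).

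Wnt and BMP genes were above 0 in 37 of 60 (median 0.04), with 10 above and 4 below 0 at an unadjusted p under 0.05, beside 3.87% and 4.06% of all regions. Beside Wnt10a stood the ligand gene Wnt7a, which had 527, 545, 613 and 540.4 in KO SRT2104, 692 and 727 in untreated KO, 538, 609 and 551 in WT SRT2104 and 495, 525, 636 and 553 in WT vehicle. Untreated KO was high at Wnt7a and low at Wnt10a, and the difference at Wnt7a was -0.39 ± 0.11. Neural progenitor and neurogenesis genes had a median of 0.0025, with the zinc finger gene Insm2 at 0.34 and the radial glia gene Fabp7 at -0.54. In the unfolded protein and heat shock response (17 of 36 regions above 0, median -0.015) the chaperone gene Hspa1a had 0.59 ± 0.26 and the calreticulin gene Calr -0.17 ± 0.08. Both rested on single untreated KO libraries. Hspa1a had 0.27 without replicate 2 and 0.92 without replicate 1, and Calr had -0.26 without replicate 2 and -0.081 without replicate 1. Cholesterol and fatty acid genes had a median of -0.0049, with the carnitine palmitoyltransferase gene Cpt1a at 0.32 ± 0.11 and its brain paralogue Cpt1c at -0.16, and Cpt1a was called without vehicle replicate 3.

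Genes of the G2 phase and mitosis, a list written after the values were seen, were above 0 in 43 of 53 with a small median of 0.08. An unadjusted p under 0.05 was reached by 6 above 0 and 0 below, beside 3.87% and 4.06% of all regions. Mki67, the proliferation marker Ki-67 (chr7:142907391-142908780), had 496, 439, 415 and 462 in KO SRT2104 and 397 and 411 in untreated KO. In WT it had 372, 444 and 434 with SRT2104 and 489, 481, 459.6 and 455 with vehicle, so that the treated KO libraries were above the untreated ones and the treated WT libraries below all vehicle libraries. The difference was 0.34 ± 0.10 (limma adjusted p = 0.417). The mitotic kinesin gene Kif20b had 0.30, the ubiquitin-conjugating enzyme gene Ube2c 0.31, the kinetochore gene Ndc80 0.24, the cyclin-dependent kinase subunit gene Cks2 0.24 and the spindle checkpoint kinase gene Ttk 0.20. The median of the list was 0.041 without untreated KO replicate 2, 0.050 without WT SRT2104 replicate 1 and 0.087 without vehicle replicate 3. Relative to the mean of all libraries, it was -0.11 and -0.043 in the untreated KO libraries and -0.032 to 0.041 in the other 11.

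Properties of the regions that the choice by p did not use differed between the directions. Among regions matched to a RefSeq promoter, those with an unadjusted p under 0.05 and a difference below 0 had a median of 13 CG dinucleotides in 300 bases (n = 248), those above 0 a median of 22 (n = 279), and all matched regions 21. Fewer than 10 CG were found in 36.3% of those below 0, in 11.5% of those above 0 and in 13.5% of all. In the quintile of promoters with the least CpG, 7.43% had such a p with a difference below 0, against 1.29% in the quintile with the most. For differences above 0 the shares were 3.49% and 4.26%. The median value of the regions was 311 in the lowest and 776 in the highest CpG quintile, and the part of signal in these shares was not tested. The median difference was -0.03 in the lowest and 0.03 in the highest quintile. Libraries of 1 group differed in the same respect. Relative to the mean of all libraries, the lowest quintile had medians of 0.072, 0.028 and 0.011 in WT SRT2104, and -0.042 and 0.024 in untreated KO. WT SRT2104 replicate 1, the highest of these, is also the library with the fewest reads, and its part in these shares was not tested.

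**Figure D5:**
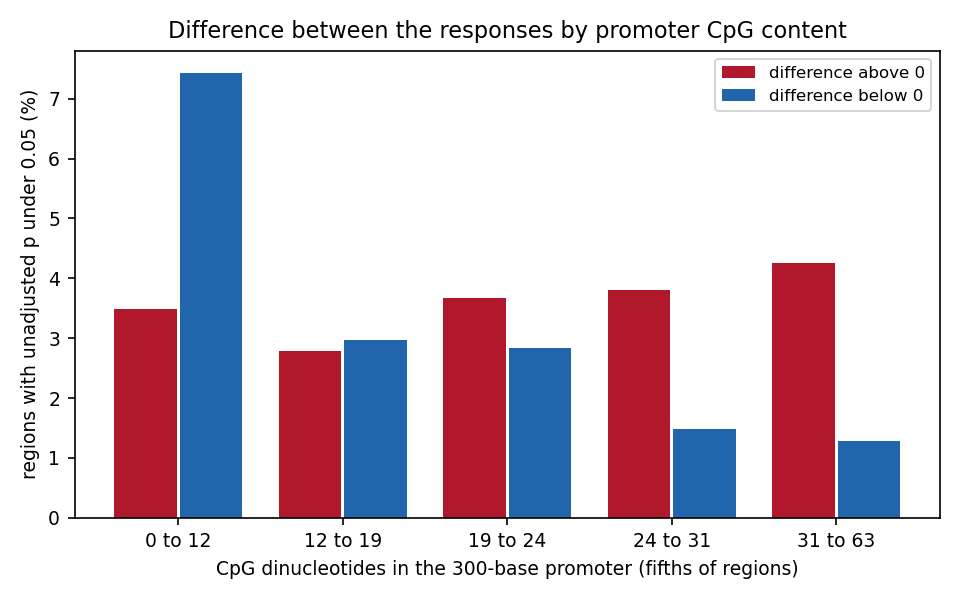
Share of autosomal regions with an unadjusted p under 0.05 for the difference between the responses, in quintiles of the number of CpG dinucleotides in the RefSeq promoter (250 bases before to 50 after the start; 1547 or 1548 regions per quintile). Differences below 0 take 7.43% of the lowest and 1.29% of the highest quintile, and differences above 0 take 3.49% and 4.26%.

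Regions with low values held more of these than regions with high values. An unadjusted p under 0.05 was reached by 12% of the quintile with the lowest mean value and by 10.4, 7.74, 5.52 and 3.89% of the next 4. The median width of the regions was 1330 bp above 0, 1670 bp below 0 and 1480 bp over all. By chromosome the share was 12.8% on chromosome 13, which carries Mtr, Tubb2a, Tubb2b, Mast4 and Gm10037, 10.2% on chromosome 12 and between 6.31 and 9.00% on the other 17 autosomes. The chromosome 13 regions were above 0 in 39 of 69, and the genotype of the flanking DNA on that chromosome is not given in the labels.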

How the data were processed

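H3K4me3 ChIP-seq signal of 13 mouse hippocampus libraries was taken from a table the authors deposited. Its values are read counts per region divided by 1 factor per library, so the deposited unit is a normalised signal. Divided by that step, every value came out as a whole read within a tolerance of 0.001. The log2 fold changes and p-values that the authors also deposited, for knockout against wild type, were not used. Per the submitters' processing notes the build was mm9 and the tools were MACS2, DESeq2, Bowtie2, SAMtools and bedtools, with no roles or versions. Lines that repeat a region for several promoter windows of 2500 bp were reduced to 14006 regions, of which 13503 are autosomal. Reads in regions numbered 3963196 to 9009109 per library, and PCR copies cannot be told apart.

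limma 3.58.1 (R 4.3.3; mean trend, robust variances) was fitted to log2(value + 1), with a mean for each of the 4 groups of the 13 libraries, and p-values, two-sided, were Benjamini-Hochberg adjusted over all 14006 regions. A value of 10 in at least 2 libraries was required. Log2 differences on this scale understate changes of low regions. Alternatives were edgeR 4.0.16, DESeq2 1.42.0 and limma voom with sample weights on the recovered reads, TMM and loess scaling, pseudocounts of 0.5 and 5, a mean of 50 or more, no filter, sex as covariate, autosomes only, limma without trend and robust variances, a replicate block and leaving out each library. The fits were tested on simulated data. Python 3.11.15 and matplotlib 3.10.9 were used for summaries and figures.

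Named regions were the 12 with the smallest p in each direction at a mean of 30 or more, the regions without overlap in both genotypes with the largest absolute difference, limma's calls, Mtr, Sirt1 and the extreme members of each gene list. Others were chosen after their values were seen, among them S100b, Apoe, Gjb6, Mog, Sox10 and Hoxa5. A few named items are not reported here. All members and lists were chosen with earlier results of these data known. A gene with several regions is represented in a list by the region with the highest mean value. Promoter sequences are RefSeq's, on GRCm38.p6, and 7738 regions matched 1 promoter on the same chromosome.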

Additional observations from a re-analysis of the deposited data

Results flagged for a closer look

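In groups of 4 libraries, a library was listed when its gap to the nearest other library exceeded the share of the group's range that Dixon's 95% critical value sets. Of 158 such groups of named promoters 12 met this, and about 5% would by chance. WT vehicle replicate 3 was the highest of its group at Gm17733 (188.5), Mtrr (788), Slco1c1 (258.5) and Pde1a (538), and the lowest at Pawr, a regulator of apoptosis (910.2). KO SRT2104 replicate 1 was the highest of its group at Mafa (306) and the lowest at 4930586N03Rik (44.6). KO SRT2104 replicate 2 was the highest at Ube2c (352) and the lowest at Calr (695). KO SRT2104 replicate 3 was the lowest at Hoxa5 (9.64), and replicate 4 the highest at Hspa1a (220.5). WT vehicle replicate 2 was the lowest at Ttk (504).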

How the results depend on the processing

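The count of regions whose responses differ was 0 with all libraries and stayed at 0 except with DESeq2 (13), voom (5) and when single libraries were left out (0 to 266, highest without WT vehicle replicate 3). At an unadjusted p under 0.05 it was 1070, and 775 to 1731 with 1 library left out. Within KO 0 regions were called by limma, 29 by DESeq2, 2 by limma without trend and robust variances, 1 by voom and 0 to 202 with 1 library left out; vehicle replicate 3, absent from that contrast, enters it through the estimate of spread. Within WT the 1 call was 0 with TMM scaling, edgeR, loess scaling and the replicate block, and 0 to 3 with 1 library left out. Regions without overlap in both genotypes numbered 47 opposite (72 with TMM; 55 to 425 with 1 library left out) and 196 in the same direction (98 with TMM; 205 to 1320), where fewer libraries make overlap rarer by construction. The share of opposite signs was 33.7%, and 47.5% with TMM. The correlation of the responses was 0.084, -0.022 with loess scaling and -0.19 to 0.19 with 1 library left out.

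Of 2048 values of 79 named promoters under 26 alternatives, 1982 kept their direction and their side of the threshold, 60 kept their direction and passed it, and 6 reversed, all at Mtr, whose difference of -0.01 was 0.0014 with edgeR, 0.032 with voom and -0.13 to 0.12 with 1 library left out. With 1 library left out, the difference moved by over 1.5 times at 16 of the 79, in 10 of these only without an untreated KO library. The causes were not tested. No pairing of the libraries by replicate number was seen. Deviations of same-numbered libraries of different groups correlated at -0.33 to 0.22 (median -0.091) and those of other numbers at -0.34 to 0.34. Deviations were taken from group means, so those of the 2 untreated KO libraries mirror each other. The check therefore cannot show that pairing or a shared batch is absent. With the replicate block 0 regions had a difference that passed (754 at an unadjusted p under 0.05).

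Untreated KO rests on 2 libraries, both female, against 4 male vehicle libraries in WT, and lacks gavage. Regions with few reads have wide errors, and p-values cover the spread between libraries only.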

Other observations

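Several promoters of neuronal growth and signalling, chosen after their values were seen, had differences in the same range as those described above, and none was called with all libraries. Dclk1, a doublecortin-like kinase of growing neurites, is given at the 1 of its 2 regions with the smaller p (chr3:55265599-55267478 on mm9). It had 324, 406, 389 and 369 in KO SRT2104 and 436 and 448 in untreated KO. In WT it had 458, 395 and 396 with SRT2104 and 338, 376, 392 and 346 with vehicle. All treated KO libraries were below the untreated ones and all treated WT libraries above the vehicle ones, a difference of -0.45 ± 0.12 (limma adjusted p = 0.287, and 0.0234 without WT vehicle replicate 3). Nrn1, the neurite-promoting protein neuritin, had a difference of -0.46 ± 0.16 at the 1 of its 3 regions with the smallest p. The groups did not overlap in either genotype. KO had 130, 163.8, 138.4 and 144.5 with SRT2104 and 171 and 167.4 untreated. WT had 159, 150.2 and 151 with SRT2104 and 130.1, 129, 139 and 125 with vehicle. Tnc, the matrix glycoprotein tenascin C, had -0.42 ± 0.17, with 116, 146, 149 and 136 in KO SRT2104, 156 and 166 in untreated KO, 177, 167 and 163 in WT SRT2104 and 155, 160.0, 152 and 131 in WT vehicle.

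In the other direction, the growth factor gene Fgf9 is given at the 1 of its 2 regions with the smaller p. It had 215, 198, 213 and 204 in KO SRT2104 and 168 and 173 in untreated KO. WT libraries had 186, 186 and 190.1 with SRT2104 and 193, 205, 190.3 and 211 with vehicle, and the difference was 0.37 ± 0.14 (unadjusted p = 0.0111). All treated KO libraries were above the untreated ones and all treated WT libraries below the vehicle ones. Pawr (chr10:107768747-107770658) had 1062, 928, 983 and 999 in KO SRT2104 and 916 and 866 in untreated KO, with 834, 909.7 and 897 in WT SRT2104 and 1019, 1007, 910.2 and 1016 in WT vehicle. Its difference was 0.32 ± 0.09, and it was called without vehicle replicate 3 (adjusted p = 0.0231), the vehicle library nearest to the treated WT ones.

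Of the 82 regions with an absolute difference of 1 or more, 51 were below 0 and 31 above, and 54 had an unadjusted p under 0.05. Their median value was 40.4, and 37 had a mean of 50 or more. Of the 31 above 0, 9 lay between 34 and 37 Mb of chromosome 17, among them promoters of the major histocompatibility complex, and untreated KO replicate 2 was the lowest of all 13 libraries at each of these 9. H2-K1, a class I antigen-presenting molecule, had 319, 281, 279.5 and 489.8 in KO SRT2104 and 292 and 60.9 in untreated KO, with 276, 286 and 475 in WT SRT2104 and 318, 483, 315 and 547 in WT vehicle. The untreated KO libraries thus differed from each other by more than the treated KO libraries did from replicate 1, and KO SRT2104 replicate 4, WT SRT2104 replicate 3 and WT vehicle replicates 2 and 4 were above all others. At C920025E04Rik in the same stretch, untreated KO had 69.0 and 1.79 and the other 11 libraries were between 78.1 and 194.5. The differences, 1.58 ± 0.75 at H2-K1 and 3.09 ± 1.41 at C920025E04Rik, were 0.46 and 0.76 without untreated KO replicate 2. Hspa1a (chr17:35108828-35109876) lies in the same stretch, and its lowest library, at 93.1, was untreated KO replicate 2 as well. Dynlt1b, a dynein light chain gene elsewhere on chromosome 17 with a difference below 0, had 1.24, 0, 98.99 and 167 in KO SRT2104 and 149 and 0 in untreated KO, with 126, 136 and 178 in WT SRT2104 and 0, 158, 0 and 159 in WT vehicle. It was near 0 in 5 libraries of 3 groups, and Ermard and Rnaset2b had values under 4 in the same 5 libraries. These regions were picked after their values were seen, and the cause was not tested.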
